A study of Homo sapiens and Mus musculus with 10 samples.

Results

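The 10 genes described here lie around CDKN2A on the short arm of human chromosome 9, in band 9p21: MLLT3, FOCAD, HACD4, IFNB1, KLHL9, MTAP, CDKN2A, CDKN2B, DMRTA1 and ELAVL2. They are 10 of the 31 protein-coding genes that GENCODE release 44 places between 20.3 and 27 Mb (GRCh38), and 10 of 19970 on the autosomes and X. The members were chosen by the peak calls of K562, which has a long stretch without ATAC-seq peaks there; these genes lie inside it or beside it, so the K562 absences below describe how they were chosen, and the tests below leave K562 out. The study profiled open chromatin by bulk ATAC-seq, in which the Tn5 transposase cuts DNA that is free of nucleosomes, in 10 libraries with 2 replicates per line. The 8 human libraries came from GM12878, a B-lymphoblastoid line immortalised with Epstein-Barr virus, K562, an erythroleukaemia line, HFF1, fibroblasts of the foreskin, and HEK293T, cells of an embryonic kidney with the large T antigen of SV40; the labels name no treatment. The mouse embryonic stem cell libraries were not used. The labels do not say whether the replicates were separate cultures, so the spread between them may be technical.

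The neighbourhood is best known for its cell cycle inhibitors. CDKN2A encodes p16, which inhibits CDK4 and CDK6, and, from a start site further upstream and another reading frame, ARF, which binds the ubiquitin ligase MDM2, while CDKN2B encodes p15, another inhibitor of the same kinases. MTAP, next to them, encodes the enzyme that recycles methylthioadenosine to methionine, and a cluster of type I interferon genes lies on the other side of MTAP. The locus is often lost in tumours, and K562 is a line in which loss of this locus has been described. Peak lists do not measure DNA copies, so in these data lost DNA and closed chromatin cannot be told apart.

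Start sites of different kinds lie in this neighbourhood, and 6 of them are shown because the results below turn on them. The following 250 bases upstream of RefSeq start sites (GRCh38.p14) are written 5′ to 3′ on the strand of the gene, with matches on either strand to the GC box GGGCGG or the CCAAT box CCAAT in capitals. The FOCAD site is at chr9:20684009-20684258 on the plus strand, the IFNB1 site at chr9:21077943-21078192 on the minus strand, and the MTAP site at chr9:21802386-21802635 on the plus strand. The CDKN2A p16 site is at chr9:21974858-21975107, the CDKN2A ARF site at chr9:21995325-21995574 and the CDKN2B site at chr9:22009306-22009555, all on the minus strand.
FOCAD: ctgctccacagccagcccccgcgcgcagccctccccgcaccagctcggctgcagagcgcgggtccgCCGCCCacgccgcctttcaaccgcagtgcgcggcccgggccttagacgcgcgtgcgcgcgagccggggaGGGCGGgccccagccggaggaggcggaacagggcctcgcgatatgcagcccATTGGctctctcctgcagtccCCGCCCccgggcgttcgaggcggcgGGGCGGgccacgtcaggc
IFNB1: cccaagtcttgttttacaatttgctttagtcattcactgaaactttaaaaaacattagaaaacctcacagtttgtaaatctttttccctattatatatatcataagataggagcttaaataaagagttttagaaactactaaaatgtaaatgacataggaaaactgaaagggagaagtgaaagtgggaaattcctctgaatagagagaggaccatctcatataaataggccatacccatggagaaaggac
MTAP: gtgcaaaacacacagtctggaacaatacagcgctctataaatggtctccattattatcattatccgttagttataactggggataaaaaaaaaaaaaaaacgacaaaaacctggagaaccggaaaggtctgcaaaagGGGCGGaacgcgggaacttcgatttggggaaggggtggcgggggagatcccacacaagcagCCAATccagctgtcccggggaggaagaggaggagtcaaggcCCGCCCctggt
CDKN2A p16: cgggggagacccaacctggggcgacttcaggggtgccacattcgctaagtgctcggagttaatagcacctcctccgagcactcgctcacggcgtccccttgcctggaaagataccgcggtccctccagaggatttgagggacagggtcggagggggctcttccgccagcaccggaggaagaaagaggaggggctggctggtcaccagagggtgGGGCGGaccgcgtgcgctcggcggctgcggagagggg
CDKN2A ARF: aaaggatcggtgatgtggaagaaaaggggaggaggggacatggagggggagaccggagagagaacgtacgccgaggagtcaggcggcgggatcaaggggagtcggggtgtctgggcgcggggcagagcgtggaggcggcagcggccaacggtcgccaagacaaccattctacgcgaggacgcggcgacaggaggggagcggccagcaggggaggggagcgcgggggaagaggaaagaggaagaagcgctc
CDKN2B: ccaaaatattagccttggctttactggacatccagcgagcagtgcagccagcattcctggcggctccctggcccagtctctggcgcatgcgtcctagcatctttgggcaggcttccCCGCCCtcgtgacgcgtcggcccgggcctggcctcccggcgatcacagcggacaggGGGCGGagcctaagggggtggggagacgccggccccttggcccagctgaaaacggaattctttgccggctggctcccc

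FOCAD had the most CpG dinucleotides of these windows, 35, with a GC content of 77.6%. It was the only one over which peaks lay in all 8 libraries, and the only one outside the K562 stretch without peaks. The p16, ARF and CDKN2B windows had 20, 24 and 18 CpGs, MTAP had 11, and IFNB1 had 0 with a GC content of 32.4%. The median over 35116 RefSeq promoter windows of this length was 11 CpGs. No library had a peak over the IFNB1 window. An ELAVL2 window not shown, at chr9:23821821-23822070, had 33 CpGs and peaks in HEK293T only. A relation of CpG number to peaks was not tested. The GC box was present in 42.6% of all RefSeq windows and the CCAAT box in 32.0%. FOCAD had 4 GC boxes, and MTAP and CDKN2B had 2 each, whereas the p16 window had 1 and the ARF and IFNB1 windows had 0. All 10 members matched the RefSeq table.

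The K562 gap was located from regions made by merging the peaks of the 8 human libraries. Of 22882 regions called in both replicates of GM12878, HEK293T and HFF1, 1433 (6.26%) held no peak of either K562 replicate. The longest run of such regions in genome order held 19 and reached from 20940401 to 26656589 on chromosome 9, 5.72 Mb that contain 26 protein-coding genes and are called the span below. K562 itself had no peak in either library between 20692855 and 26797043, a stretch of 6.10 Mb.

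The K562 gap began inside FOCAD. The last K562 peaks before it lay at 20692634 to 20692854 in replicate 1 and at 20692580 to 20692736 in replicate 2, in an intron of FOCAD, with 13 and 16 reads in the pileup at the summit. The first after it lay at 26797044 in replicate 1 and at 26892207, at the start of CAAP1, in replicate 2. Pileups here are reads per window of 150 bp, recovered from the authors' fold and −log10 p, and a library's background level, in the same unit, stands for its depth. That level was 0.465 and 0.466 in HEK293T, 1.71 and 1.73 in GM12878, 2.43 and 2.06 in HFF1, and 2.21 and 1.97 in K562. The part of depth in the K562 gap was not tested.

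Another K562 interval without peaks preceded this one. It ran for 758 kb in replicate 1 and 757 kb in replicate 2, covered all of MLLT3 and ended just before the canonical FOCAD start site. By length it ranked only 385 and 407 among the intervals without peaks in K562 replicates 1 and 2. GM12878 had 35 and 35 peaks between the bounds of replicate 1, HEK293T 4 and 6, and HFF1 42 and 37. Between both gaps, the K562 peaks were those at and just behind the FOCAD start site. Among the intervals without peaks in a K562 library the one over CDKN2A ranked 7 by length in both, centromeres included. In replicate 1 it held 144 and 139 GM12878 peaks, the highest numbers among the 8 longest gaps of K562 replicate 1, where the next, on chromosome 14, held 80 and 80.

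**Figure D1:**
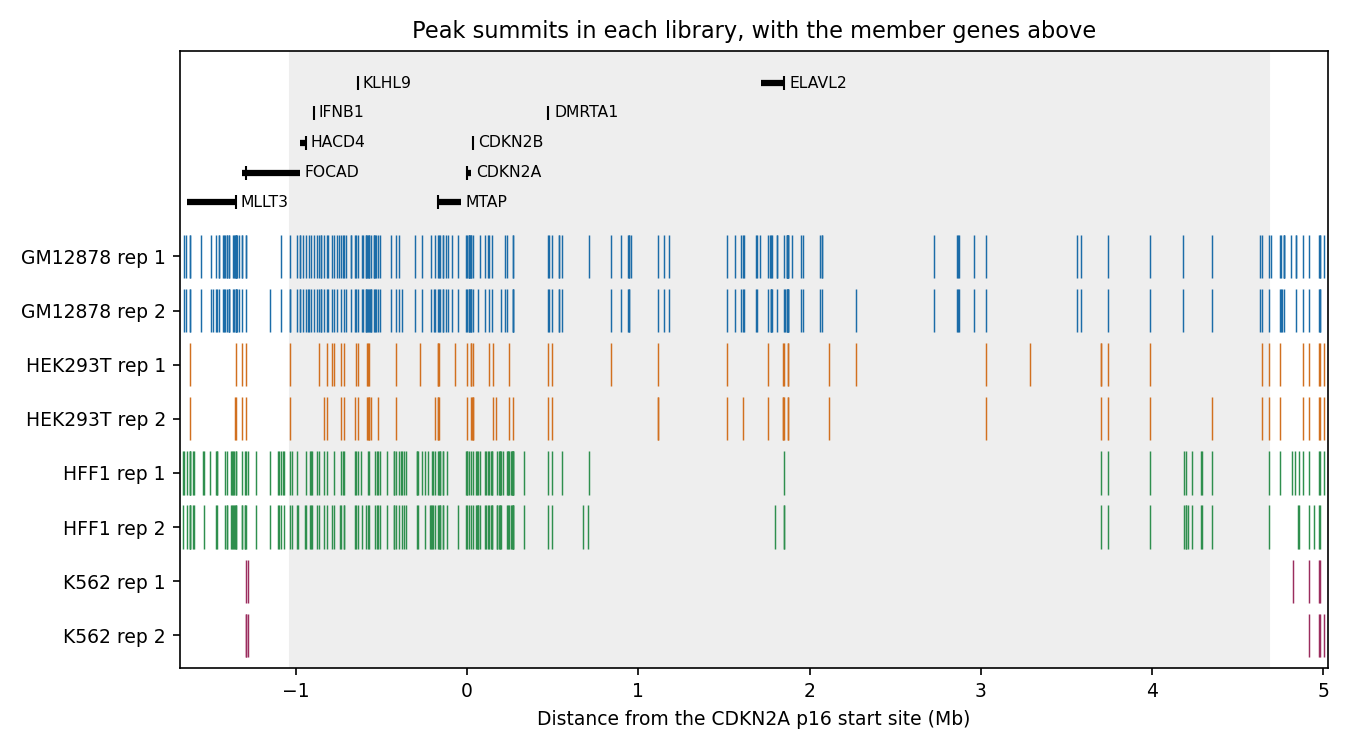
Peak summits (ticks) in each of the 8 human libraries against distance from the CDKN2A p16 start site in Mb, with the 10 member genes as black bars above and the 5.72 Mb span shaded. The K562 rows hold 6 and 7 peaks in the window and none in the shaded span, where the other libraries hold 45 to 136.

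In the span, GM12878 had 136 and 133 peaks, HEK293T 45 and 47, HFF1 99 and 105, and K562 0 and 0. GM12878 and HFF1 were therefore well above HEK293T, the shallowest line, and no line overlapped another. Relative to all peaks of a library, GM12878 had 13.1 ± 0.388 per 10000 (SD, n = 2), HEK293T 8.80 ± 0.306 and HFF1 8.25 ± 0.673. On that scale HEK293T and HFF1 overlapped and the GM12878 libraries had higher values than both. The share of variance between these 3 lines (eta squared) was 0.976 (exact one-sided permutation test over 15 pairings, p = 0.133, adjusted over 3 tests 0.2), and such a design cannot give a p below 0.0667. The edges of the span were set by regions called in these same 3 lines, so their peaks took part in its choice. Among the 20000 strongest peaks per library the lines were closer, with means of 17.5 peaks in GM12878, 17 in HEK293T and 14.5 in HFF1 and a share of variance of 0.408 (exact permutation p = 0.467).

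The rest of the window, on either side of the span, held 44 and 38 GM12878 peaks, 10 and 11 in HEK293T, 42 and 37 in HFF1, and 6 and 7 in K562. Per 10000 peaks these were 4.00 ± 0.468, 2.01 ± 0.143, 3.19 ± 0.158 and 0.873 ± 0.155 (SD, n = 2 each). The libraries of GM12878, HEK293T and HFF1 did not overlap on this scale, and the share of variance between these 3 lines was 0.938 (exact one-sided permutation test over 15 pairings, p = 0.0667, the smallest possible, adjusted over 3 tests 0.2). These flanks are what the span leaves of the window, so the peaks of the 3 lines took part in their choice too. The low K562 value is a description, since K562 lacks peaks here over the MLLT3 interval described above.

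Promoter peaks were then counted gene by gene. A promoter peak lies within 1 kb of an annotated start site and was required in both replicates. GM12878 had one at 10 of 10 members, against 71.9% of all protein-coding genes, HFF1 at 9 against 76.2%, and HEK293T at 8 against 67.8%. K562 had one at 1, FOCAD, against 70.4%. The members are a chosen 10 of the 31 protein-coding genes of the window, so these counts do not describe the window. Among its other genes, most type I interferon genes had no promoter peak, while CAAP1, PLAA and IFT74 had one in every line. Of the 10 members, 7 had a promoter peak in the other 3 lines and in neither K562 library, a pattern of 1.72% of all genes, and of 2.78% of those with a peak in the 3 lines, that is fixed by the choice of members. HACD4 was missing in HEK293T, and IFNB1 in HEK293T and HFF1. When the peaks were thinned to the background level of the shallowest library, HACD4 and IFNB1 kept their calls in GM12878. HACD4 also kept its call in HFF1, while ELAVL2 lost its call in GM12878. Before thinning, IFNB1 had 16 and 18 reads in GM12878 and ELAVL2 17 and 20. The thinning was a single random draw, and how these calls vary between draws was not tested.

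**Figure D2:**
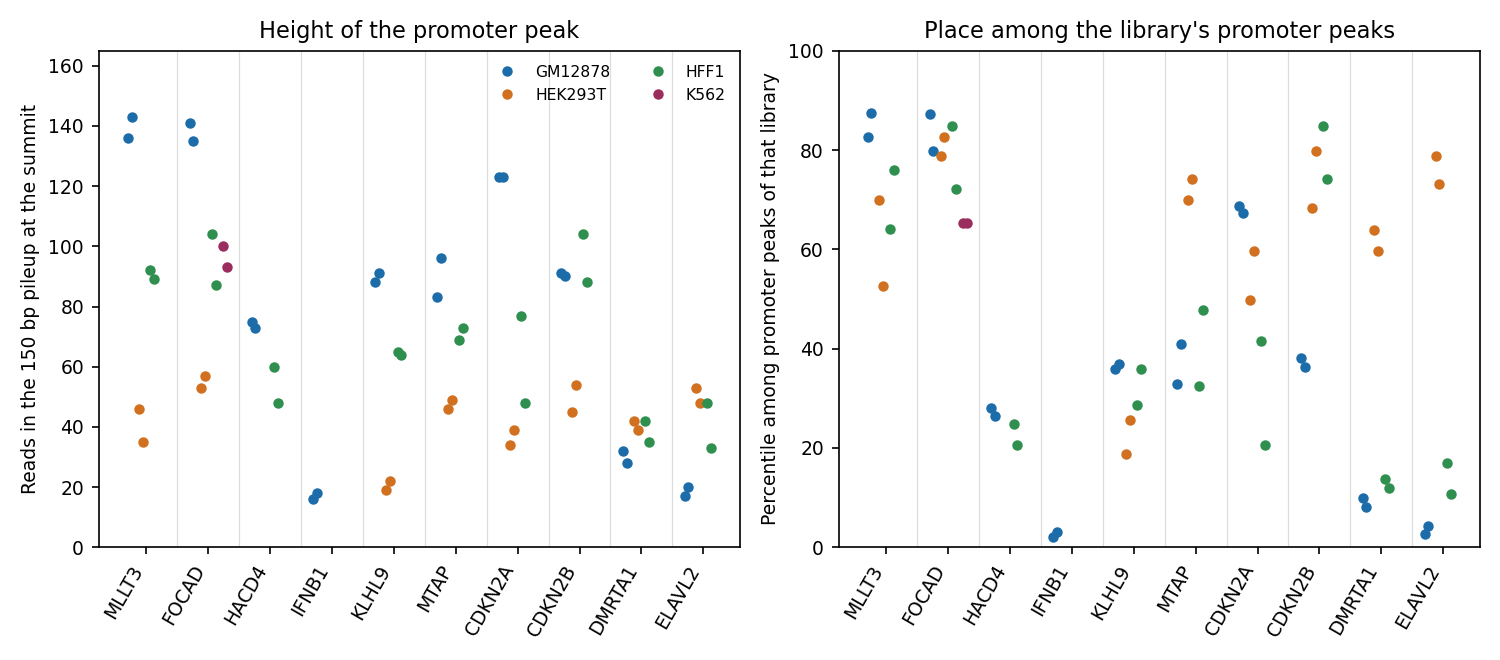
Height of the promoter peak of highest −log10 p for each member in each library, left as reads in the 150 bp pileup at the summit and right as the percentile among all protein-coding genes with a promoter peak in that library (1 point per library, coloured by line). FOCAD is the only member with K562 points, at 100 and 93 reads, and ELAVL2 and DMRTA1 reach their highest percentiles in HEK293T.

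MLLT3 and FOCAD come first in genome order. MLLT3 encodes AF9, a reader of acylated histones in the super elongation complex and a fusion partner of KMT2A in leukaemia; it spans 20341669 to 20622499 on the minus strand. Its promoter pileup was 136 and 143 reads in GM12878, 46 and 35 in HEK293T, and 92 and 89 in HFF1. Since depths differ, each promoter was also placed among all promoter peaks of its library. MLLT3 lay at percentiles 82.7 and 87.5 in GM12878, 69.9 and 52.7 in HEK293T, and 64.1 and 75.9 in HFF1, always above the median promoter.

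Inside the MLLT3 body every GM12878 and HFF1 library had more peaks than the HEK293T libraries. GM12878 had 18 and 18 peaks, HFF1 18 and 17, HEK293T 2 and 3, and K562 0 and 0. The share of variance between GM12878, HEK293T and HFF1 was 0.997 (exact one-sided permutation test over 15 pairings, p = 0.2, adjusted over 3 tests 0.2). Such a test cannot give a p below 0.0667, so it could not pass whatever the counts. After the same random thinning to the HEK293T background level GM12878 had 12 and 15 peaks and HFF1 8 and 15. The part of depth in the rest of the difference was not tested. Similar counts did not mean the same elements. GM12878 and HFF1 each had 15 regions called in MLLT3, of which 8 were shared, 53.3% of either list. Over all regions 42.9% of those of GM12878 and 37.0% of those of HFF1 were shared. A start site group of MLLT3 at 20382452 to 20382487 had a peak in HFF1 only, with 27 and 19 reads.

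FOCAD encodes focadhesin and runs on the plus strand from 20658309 to 20995955, across the edge of the K562 gap. At its canonical start site, 20684259, all 8 libraries had a peak, shared with the start of the antisense RNA FOCAD-AS1. The pileup was 141 and 135 reads in GM12878, 53 and 57 in HEK293T, 104 and 87 in HFF1, and 100 and 93 in K562. The K562 peaks stood at percentiles 65.4 and 65.3 of K562 promoters, below the 72.2 to 87.3 of the other 6 libraries. The summits of the 8 libraries lay 32 to 51 bp upstream of the start site.

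FOCAD has 16 annotated start sites, and the outermost, 20658309, had lower peaks. There GM12878 had 63 and 60 reads, HEK293T 7 and 10, HFF1 21 and 15, and K562 had no peak. That site falls in the K562 gap that covers MLLT3. Of the start sites inside the gene, those at 20872807 to 20873843 had a peak in HFF1 only, of 27 and 19 reads, as did that at 20952420, with 25 and 20 reads, and those at 20820294 to 20820389 had one in GM12878 replicate 2 only, of 13 reads. The gene body held 7 and 7 peaks in GM12878, 3 and 3 in HEK293T, 14 and 15 in HFF1 and 2 and 3 in K562. HFF1 thus had the most. All 5 regions that GM12878 called in FOCAD were also called in HFF1, against 42.9% of GM12878 regions over all regions. In HFF1 they made up 41.7% of 12, near the 37.0% over all HFF1 regions. The part of FOCAD inside the span, 55.6 kb at its 3′ end, held 2 and 3 peaks in GM12878, 1 and 1 in HEK293T, 3 and 4 in HFF1, and 0 in K562.

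Between FOCAD and MTAP lie HACD4, the interferon cluster and KLHL9. HACD4, a dehydratase of very long chain fatty acid synthesis, spans 20999509 to 21031640 on the minus strand. It had 75 and 73 reads at its promoter in GM12878 and 60 and 48 in HFF1, all between percentiles 20.6 and 28.1. HEK293T had no peak at all in HACD4, and its nearest peaks lay 79.4 and 85.4 kb from the start sites. KLHL9, a substrate adaptor of cullin 3 ubiquitin ligases at 21329665 to 21335404 on the minus strand, had 1 peak per library in the 3 lines. Its pileup was 88 and 91 reads in GM12878, 19 and 22 in HEK293T, and 65 and 64 in HFF1. The GM12878 summits lay 204 bp inside the gene, whereas those of HEK293T and HFF1 lay 4 to 13 bp upstream of the start site.

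IFNB1 encodes interferon beta, which most cells switch on when they sense viral nucleic acid, and spans 21077104 to 21077942 on the minus strand. Its GM12878 peaks, of 16 and 18 reads, had summits 970 and 990 bp upstream of the start site and did not reach the sequence printed above. They were among the lowest promoter peaks of those libraries, at percentiles 2.15 and 3.15, and with a window of 500 bp IFNB1 had none. The nearest HFF1 peaks lay 7.31 and 7.32 kb away and the nearest HEK293T peaks 33.1 and 63.5 kb. IFNB1 thus sat at the limit of the 1 kb rule in GM12878 and outside it in the other lines.

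Promoter peaks were also counted over the type I interferon genes, beside shares of 67.8% to 76.2% over all protein-coding genes in the 4 lines. Of the 16 in the window, IFNB1 included, GM12878 had a promoter peak in both replicates at 4 (IFNB1, IFNW1, IFNA13 and IFNA2), HFF1 at 1 (IFNW1), and HEK293T and K562 at 0. The interferon genes are near-identical copies in part, so reads that map to several of them may be lost or split, and the mapping filter is not given in the sources used here. Between the genes the chromatin was not empty: from the FOCAD end to MIR31HG, GM12878 had 29 and 27 peaks, HFF1 16 and 19, and HEK293T 8 and 6.

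The strongest HFF1-specific region of the window lay between HACD4 and IFNB1, and it is shown with the strongest specific region of each other line. Each sequence below holds 101 bases of the plus strand (hg38), centred on the highest summit. Capitals mark matches on either strand to any of 5 motifs: the AP-1 motif TGANTCA, the GATA factor motif AGATAAG, the RUNX motif TGTGGTT, the TEAD motif CATTCCA and the core of the CTCF motif. No match overlapped one of another motif in the sequences shown. The regions are at chr9:20640486-20640586 (GM12878), chr9:22124724-22124824 (HEK293T), chr9:21070224-21070324 (HFF1) and chr9:20692600-20692700 (K562).
GM12878: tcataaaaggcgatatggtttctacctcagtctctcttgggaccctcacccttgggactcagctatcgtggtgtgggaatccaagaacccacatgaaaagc
HEK293T: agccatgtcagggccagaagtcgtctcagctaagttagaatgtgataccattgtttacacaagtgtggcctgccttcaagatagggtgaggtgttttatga
HFF1: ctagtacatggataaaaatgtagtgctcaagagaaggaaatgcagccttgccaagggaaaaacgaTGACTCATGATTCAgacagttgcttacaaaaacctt
K562: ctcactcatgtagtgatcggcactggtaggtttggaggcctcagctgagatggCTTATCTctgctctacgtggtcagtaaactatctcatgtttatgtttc

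The HFF1 region, 21070084 to 21070628, lay 7314 bp from the IFNB1 gene's start, with 70 and 59 reads. It carried a pair of adjoining AP-1 matches. The GM12878 region, 20640236 to 20641061, lay between MLLT3 and FOCAD with 134 and 133 reads, as tall as the MLLT3 promoter, and had none of the 5 motifs. The HEK293T region lay in CDKN2B-AS1 with 22 and 17 reads and had none of them either. The K562 region, 20692580 to 20692854, was the last peak before the gap and had a GATA match.

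These matches were set against all distal regions, those over 1 kb from a coding start site. AP-1 was found in 15.0% of 208939 distal regions, in 25.2% of those specific to HFF1 and in 15 of the 49 (30.6%) of these in the window. For GM12878 it was found in 11.7% of specific distal regions and in 8 of 72 (11.1%) in the window. The CTCF core was found in 2.71% of all distal regions and in 18.3% of those called in GM12878, HEK293T and HFF1, against 3 of 13 (23.1%) in the window. GATA was found in 2.21% of all distal regions and in 12.3% of those specific to K562. These shares are descriptions and were not tested.

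Line-specific regions were counted beside their share in the whole genome. GM12878 had 150 called regions in the window, of which 76 (50.7%) held no peak of another line, against 40.6% over all its regions. For HFF1 these were 54 of 120 (45.0%) against 50.5%, for HEK293T 4 of 42 (9.52%) against 10.8%, and for K562 1 of 5 (20.0%) against 25.4%. In the span there was no K562 peak with which a region could have been shared.

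MTAP spans 21802636 to 21937651 on the plus strand and starts with the longer RNA ENSG00000264545. Its promoter pileup was 83 and 96 reads in GM12878, 46 and 49 in HEK293T, and 82 and 73 in HFF1. Among promoters of the same library MTAP was ordinary in GM12878 (percentiles 32.8 and 40.9) and high in HEK293T (69.9 and 74.2). The gene has another start site at 21803278, and the GM12878 summits and that of HFF1 replicate 1 lay within 35 bp of it, while those of HEK293T and HFF1 replicate 2 lay within 18 bp of 21802636. Start sites inside the gene, at 21854724 to 21856118, had a peak in HFF1 only, of 69 and 43 reads. In HFF1 replicate 1 this inner peak had the higher −log10 p, so it is the MTAP point of that library in the plot of promoter heights by member. The body held 9 and 9 peaks in GM12878, 3 and 2 in HEK293T, 7 and 8 in HFF1 and 0 in K562.

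One distal region of MTAP was called in all 3 of these lines, and it is shown as an example of the shared class, chosen after its values were seen. It is also the promoter peak of the pseudogene TUBB8P1, which starts within 1 kb of it, and is distal only to coding start sites. The region lies in an intron at 21813039 to 21813498, with 64 and 56 reads in GM12878, 9 and 10 in HEK293T, and 41 and 46 in HFF1. Its 101 bases at chr9:21813128-21813228, plus strand, hold a match to the CTCF core, in capitals.
MTAP intron: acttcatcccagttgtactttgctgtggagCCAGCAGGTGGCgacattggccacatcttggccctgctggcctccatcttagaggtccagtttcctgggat

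CDKN2A and CDKN2B gave 3 promoters, at the p16, ARF and p15 start sites. The p16 site had 21 and 23 reads in GM12878, 34 and 24 in HEK293T, and 49 and 48 in HFF1. The strongest peak at the ARF-side start sites, 21994392 to 21995301, had 123 and 123 reads in GM12878, 39 and 39 in HEK293T, and 77 and 59 in HFF1. The GM12878 and HFF1 peaks covered the outermost of these, whereas the strongest HEK293T peaks ended at 21994891 and 21995228, before it. HEK293T replicate 1 had another, weaker peak at these start sites, which reached the ARF sequence printed above. Both sites were measured in the same library, and the ratio of p16 to this peak was 0.171 and 0.187 in GM12878 and 0.636 and 0.814 in HFF1. GM12878 therefore had the lower ratio, 0.179 ± 0.0115 against 0.725 ± 0.125 (SD, n = 2 each). The HFF1 replicate 2 ratio of 0.814 was taken at a summit 498 bp upstream of the ARF start, against 83 bp in replicate 1. In HEK293T the ratio was 0.872 and 0.615, but against a peak at another place.

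CDKN2B gives a reference at the same place in the 3 lines. Its pileup was 91 and 90 reads in GM12878, 45 and 54 in HEK293T, and 104 and 88 in HFF1. The ratio of p16 to CDKN2B was 0.243 ± 0.0175 in GM12878, 0.600 ± 0.220 in HEK293T and 0.508 ± 0.0525 in HFF1 (SD, n = 2 each). Both GM12878 libraries were below the HEK293T and HFF1 libraries on this ratio. A library's ratio of heights was not tested between lines, since 6 libraries cannot reach a p under 0.0667. CDKN2B stood at percentiles 36.3 to 38.0 in GM12878, 68.3 to 79.7 in HEK293T and 74.2 to 84.9 in HFF1.

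In the plot of promoter heights by member, the CDKN2A point is the p16 peak in HEK293T replicate 1 and HFF1 replicate 2, where it had the higher −log10 p, and an ARF-side peak in the other 4 libraries of these lines. The position of the strongest ARF-side peak also differed. The summits lay 92 and 81 bp upstream of the ARF start in GM12878 and 83 bp upstream in HFF1 replicate 1, but 498 bp upstream in HFF1 replicate 2. In HEK293T they lay 554 and 544 bp inside the gene, towards the start of CDKN2B-AS1, the long RNA that runs the other way from 21994139. ATAC-seq reads have no strand here, so the share of ARF and of CDKN2B-AS1 in these peaks cannot be told apart.

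**Figure D3:**
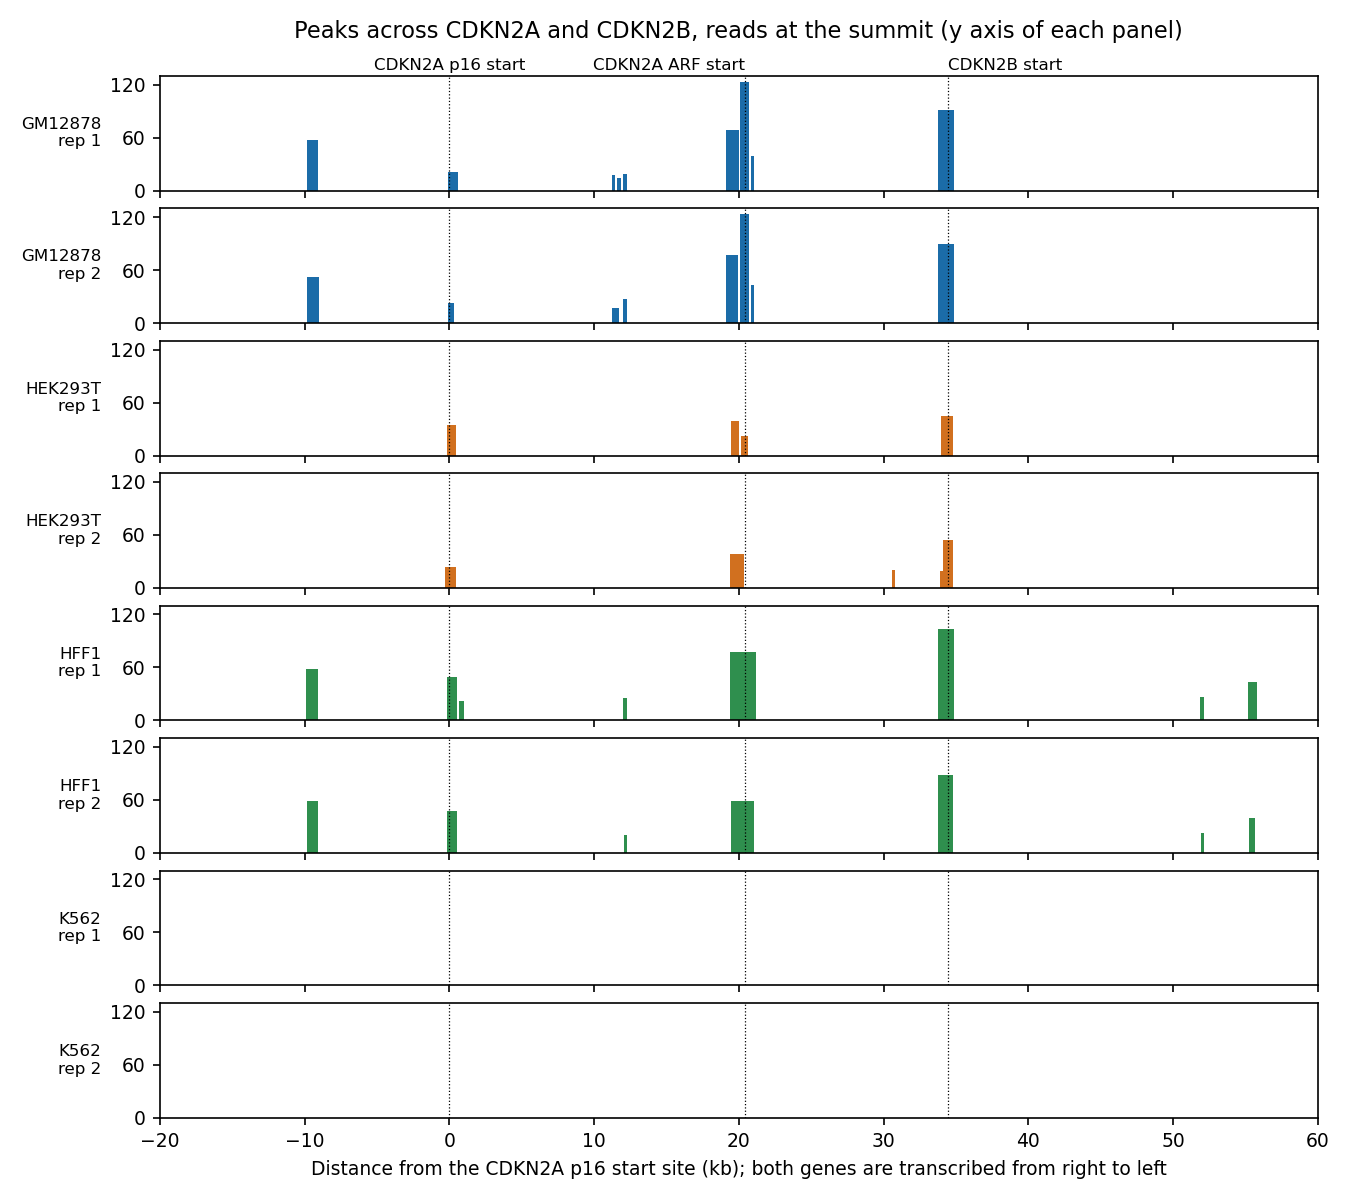
Peaks of each human library across CDKN2A and CDKN2B, drawn to their width, with reads at the summit on the y axis and distance from the p16 start site in kb on the x axis (dotted lines mark the 3 start sites). The p16 peaks of GM12878, at 21 and 23 reads, are short beside its ARF peaks of 123, and the K562 panels are empty.

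Around these promoters GM12878 and HFF1 shared a region with no HEK293T peak. The region at 21964981 to 21965816, 1936 bp beyond the 3′ end of CDKN2A, had 57 and 52 reads in GM12878 and 58 and 59 in HFF1, more than p16 in either line. On the other side, in the 118 kb of CDKN2B-AS1 beyond the CDKN2B promoter, HFF1 had 11 and 12 peaks, GM12878 5 and 4, HEK293T 2 and 1, and K562 0. HFF1 called 11 of the 15 regions there in both replicates, and 7 of these held no peak of another line, against 50.5% of all HFF1 regions. GM12878 called 3 and HEK293T 1. These elements were chosen for mention after their values were seen.

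Past CDKN2B the members are far apart. DMRTA1, a transcription factor with a DM domain at 22446824 to 22455740 on the plus strand, had 32 and 28 reads in GM12878, 42 and 39 in HEK293T, and 42 and 35 in HFF1. Raw heights were alike although HEK293T was the shallowest line. DMRTA1 accordingly stood at percentiles 64.0 and 59.7 in HEK293T, against 9.84 and 8.03 in GM12878 and 13.7 and 12.0 in HFF1. The GM12878 peaks were narrow, 242 and 363 bp against 957 to 972 bp in the other lines, and did not reach the 250 bases before the start site.

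ELAVL2 encodes HuB, an RNA-binding protein of neurons, and spans 23690104 to 23826337 on the minus strand. At its outermost start sites, 23826174 to 23826337, GM12878 had 17 and 20 reads, HEK293T 53 and 48, and HFF1 48 and 33. The HEK293T peaks stood at percentiles 78.8 and 73.1, those of HFF1 at 16.9 and 10.8, and those of GM12878 at 2.65 and 4.24. A start site group near 23821275 had a peak in HEK293T only, of 22 and 24 reads. ELAVL2 and DMRTA1 were thus the members at which HEK293T stood furthest above the other lines by percentile.

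Between the genes, the line with more peaks changed between GM12878 and HFF1 at several places. From the FOCAD end to MIR31HG GM12878 had 29 and 27 and HFF1 16 and 19. From MIR31HG to MTAP HFF1 had 16 and 14 and GM12878 7 and 9. Another change came on passing DMRTA1. From the end of CDKN2B-AS1 to DMRTA1, a stretch of 319 kb, HFF1 had 18 and 16 peaks, GM12878 4 and 6, and HEK293T 2 and 4. From DMRTA1 to ELAVL2, over 1243 kb, GM12878 had 24 and 21, HFF1 4 and 4, and HEK293T 5 and 6. Within ELAVL2 GM12878 had 7 and 7, HEK293T 3 and 4, and HFF1 1 and 3. From ELAVL2 to the end of the span GM12878 had 28 and 27, HEK293T 13 and 11, and HFF1 11 and 13. The replicates did not overlap between GM12878 and HFF1 in any of these intervals, and the differences were not tested.

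**Figure D4:**
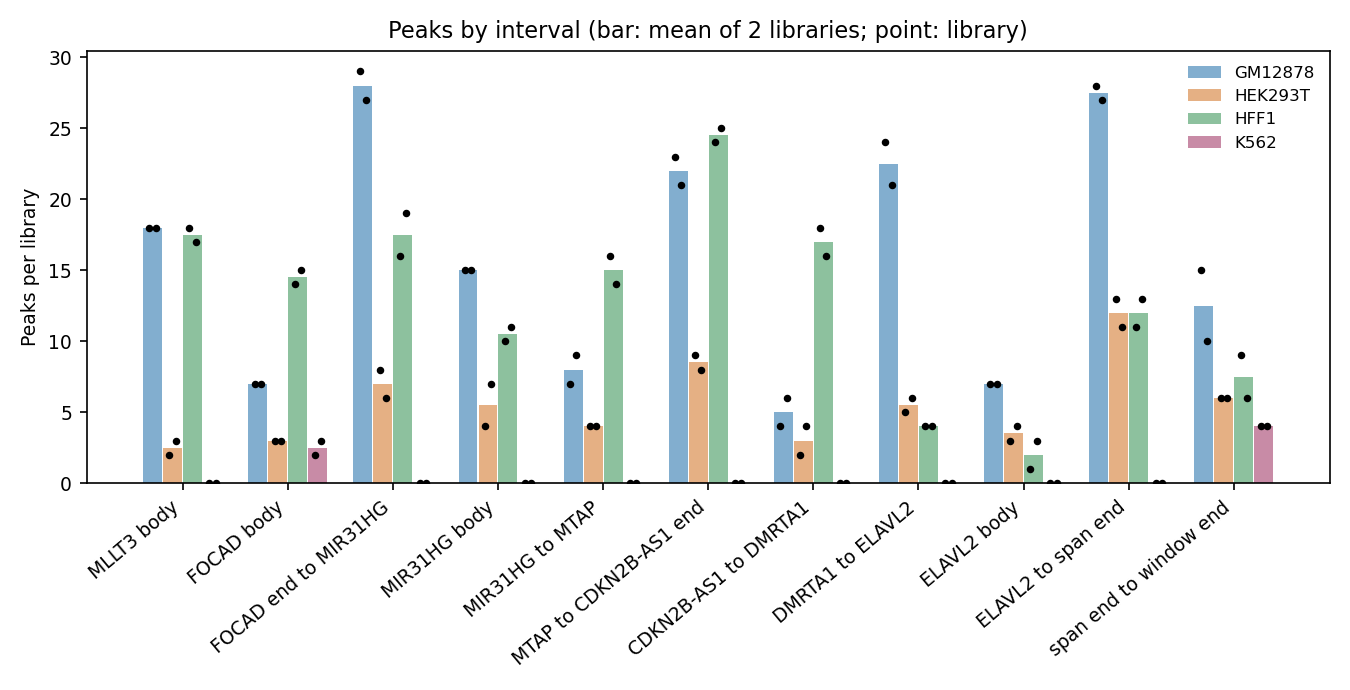
Number of peaks in each interval of the window by line, in genome order from MLLT3 to the end of the window (bars are means of 2 libraries and points are libraries). HFF1 is highest from CDKN2B-AS1 to DMRTA1, with 18 and 16 peaks, and GM12878 from DMRTA1 to ELAVL2, with 24 and 21, while K562 has bars only at FOCAD and after the span.

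Of the 22 regions of the window called in GM12878, HEK293T and HFF1 and without K562, 19 lay in the span and 3 in the MLLT3 flank. A further 4 had K562 peaks: the FOCAD start site and, beyond the span, the starts of CAAP1, of PLAA with IFT74, and of IFT74 with its antisense RNA. At the first of these, CAAP1, K562 had 60 and 49 reads. Among other genes with a promoter peak in both replicates of a line, MIR31HG, the host gene of miR-31, CDKN2B-AS1 and TUBB8P1 had one in the 3 lines and none in K562. TUSC1 had one in HEK293T and HFF1, and LINC01239 in HFF1. The TUBB8P1 promoter peak is the MTAP intron region shown above. Just outside the window, SLC24A2 had a promoter peak in both K562 and both HEK293T libraries, in 1 HFF1 library and in no GM12878 library, and TEK had one in HFF1 only. The genes just inside were MLLT3 and, at the other end, IFT74, with peaks in all 4 lines, and LRRC19, with none.

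The partners of these genes elsewhere in the genome had promoter peaks in K562, as had 70.4% of all protein-coding genes, beside 71.9% in GM12878, 76.2% in HFF1 and 67.8% in HEK293T. Of 13 genes of the RB pathway, other CDK inhibitors and the MDM proteins (among them CDKN2C and CDKN2D, the other members of the INK4 family, RB1 and MDM2), all 13 had one in both replicates of all 4 lines. Of 8 Polycomb genes, which silence the INK4 locus in many cells, 8 had one in GM12878, HFF1 and K562 and 7 in HEK293T, where RING1 had none. Of 10 genes of methionine salvage and the PRMT5 complex, 10 had one in GM12878, HFF1 and K562 and 9 in HEK293T, where MRI1 had one in 1 replicate. As a check of the labels, 5 of 5 B-cell markers had promoter peaks in GM12878, 5 of 5 fibroblast markers in HFF1, 5 of 5 kidney-lineage markers in HEK293T and 3 of 5 erythroid markers in K562, where KLF1 and HBG1 had none. The B-cell markers had one at 2 of 5 in each other line and the erythroid markers at 1 of 5. The fibroblast markers had one at 3 in GM12878, 1 in HEK293T and 2 in K562, and the kidney-lineage markers at 2 in GM12878, 3 in HFF1 and 1 in K562. The K562 count of 3 of 5 is below the share of 70.4% over all genes, so this count does not check that label. Of the 3, GATA1 and TAL1 had a promoter peak in K562 only, and EPOR had one in all 4 lines.

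Outside the window 337 genes had the presence pattern of MTAP and CDKN2A. Likeness was the Pearson correlation over the 8 libraries of log2(pileup over background + 1), a description in which the shared zeros of K562 carry most of the value. The genes most like MTAP were PEX11A and WDR93, which share a promoter, PRDM8, ATG9B and FLRT3, all with r of 0.999. Those most like CDKN2A were C2CD4A, DPP4, IL7R, MCTP2 and MTX3, with r from 0.997 to 0.999.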

How the data were processed

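Bulk ATAC-seq peak lists of 8 human libraries (4 lines, 2 replicates each) were used; groups and replicate numbers came from the titles. Per the labels' protocols, nuclei were tagmented with Tn5 and about 20000 stained nuclei were sorted per library. Cutadapt 3.2, Bowtie2 2.4.2, Picard, MACS2 2.2.7.1 and hg38 are named per the submitters' processing notes; read shift, duplicate filter and parameters are not given in the sources used here. The authors deposited one list per library, giving each peak a score, a fold and −log10 values of p and q. These are the authors' own values, and the deposited score is the −log10 q times 10, rounded down. The fold was read as the linear ratio of summit pileup to local background, with the same constant added to both.

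Coordinates count from 1 (GRCh38). Whole-number pileups were recovered from fold and −log10 p for 100% of peaks (tolerance 0.01), tested on simulated data; the 150 bp window is inferred. The background level is the 1st percentile of recovered backgrounds and stands for depth; no counting interval was computed. Libraries held 52137 to 127359 peaks on the autosomes and X. Peaks overlapping by at least 1 bp were merged into regions, which count as called where a line has peaks in its replicates 1 and 2. Promoters came from GENCODE release 44 and motif windows from RefSeq and hg38. Named genes are the 10 members, other genes of the window with a promoter peak in both replicates of a line, and fixed lists. GM12878, HEK293T and HFF1 were compared by eta squared over all pairings of libraries in exact one-sided permutation tests, adjusted over 3 tests by the Benjamini-Hochberg method; K562 was left out of 2 tests after the data were seen, because its absences chose the members. The members and lists were chosen with earlier results of these data known. No replicate files shared identical rows. Analyses used Python 3.11.15, numpy 2.4.6, pandas 2.3.3 and scipy 1.17.1. A gene of the list of cell cycle regulators is not reported here.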

Additional observations from a re-analysis of the deposited data

How the results depend on the processing

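Of 99 recomputed values, 91 kept their side of the threshold or stayed within 1.5 times, 4 lost their call, 4 moved and 0 reversed. Part of the 91 was fixed in advance, so the tally does not measure how firm the results are. The exact permutation test of the span among 3 lines cannot give a p below 0.0667. The K562 counts in the span follow from how the span was chosen, and regions called in the 3 lines tested set its edges. With the 20000 strongest peaks per library, the mean number of peaks in the span was 17.5 in GM12878, 17 in HEK293T and 14.5 in HFF1, by construction fewer, and the share of variance in the span among them 0.408 (exact permutation p = 0.467). Calling a region when either replicate had a peak lengthened the run from 19 to 31 regions, since more regions then entered it. The tests of the flanks and of MLLT3 were first set over all 4 lines and gave 0.975 (exact permutation p = 0.00952) and 0.998 (exact permutation p = 0.0286); they include the K562 absences that chose the members, so they support nothing, and the values without K562, an alternative chosen after seeing the data, are the ones reported: 0.938 (exact permutation p = 0.0667) and 0.997 (exact permutation p = 0.2). Over the 4 lines the flank value with the 20000 strongest peaks was 0.895 (exact permutation p = 0.143, the cause was not tested). Under a replicate block, the 4-line values were 0.977 (exact permutation p = 0.0417) and 0.998 (exact permutation p = 0.0833, over fewer pairings), and the span value among 3 lines was 0.980 (exact permutation p = 0.167). Whether the replicate numbers pair the libraries across lines was not tested. Replicate 1 had the higher share of its peaks in the window in GM12878 and the lower in HEK293T, HFF1 and K562, which cannot decide it. Leaving out each library in turn changed no call of the tests as first set. Member calls changed in 2 settings, both in GM12878: IFNB1 was lost within 500 bp, and ELAVL2 after thinning, which was a single random draw. A peak list holds no value below the authors' threshold, so an absence is a lack of a call at that depth.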
